A study of Mus musculus with 27 samples.

Results

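Lipid-associated macrophages are phagocytes that take up and break down lipid-rich debris, and 8 genes that mark this state were followed through the repair of injured mouse muscle. The genes were Trem2, Tyrobp, Apoe, Fabp5, Spp1, Lgals3, Gpnmb and Cd9, chosen by gene name, and all 8 were present among the 55852 entries of the table of injured muscle and the 55677 entries of the table of control muscle. All 8 passed the filter on low values in both tables. Muscle of male WT mice and of male mice homozygous for a whole-body Gsdme knockout (KO) was injured with cardiotoxin (CTX), a snake venom peptide that lyses myofibres, and RNA was sequenced on D1, D4, D7 and D14 after injection. Each genotype and day was covered by 3 libraries (24 in all), described as biological triplicates, and 3 further libraries came from WT muscle without CTX. The methods describe the uninjured muscle as contralateral, while the labels do not tie a control to an injured animal, so that the comparison with control was not paired. They also describe 2 sequencing batches, the first with injured and contralateral muscle 1 day after injury and the second with both genotypes on all 4 days. The same WT D1 libraries stand in both tables, and the labels give no batch. The sample titles give KO where the genotype field gives Gsdme knockdown, and the age of the mice is not given in the sources used here. The muscle collected was the gastrocnemius, and the injection site is the gastrocnemius in the methods and the thigh in the series' design text. No library was enriched for macrophages, and whole muscle was sequenced. A lower level may reflect fewer cells of a type, less RNA per cell or a larger share of other transcripts in the library. These cannot be told apart.

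TREM2 is a receptor of myeloid cells that binds lipids and lipoproteins, and it signals through the adaptor TYROBP (DAP12), which recruits the kinase SYK. APOE is an apolipoprotein that carries cholesterol out of cells and binds TREM2, and FABP5 carries fatty acids inside the cell. SPP1 (osteopontin) is a secreted ligand of integrins and CD44, LGALS3 (galectin 3) binds glycans at the cell surface and at damaged lysosomes, GPNMB is a glycoprotein of lysosomes and the plasma membrane, and CD9 is a tetraspanin of the plasma membrane. In injured muscle, macrophages derived from blood monocytes clear dead fibres before the tissue regenerates. Apoe, Cd9, Fabp5 and Lgals3 are also used by cells other than macrophages.

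Promoters are shown for Trem2, the receptor, for Spp1, the gene with the widest range of levels, and for Gpnmb, whose levels ran close to those of Trem2, because the members' libraries ranked alike (1 WT D1 library was the lowest of its group for all 8). The sequences are the 250 bases upstream of the start in RefSeq (GRCm38.p6), and capitals mark matches to the motifs searched. Trem2 is shown at chr17:48346151-48346400 (plus strand), Spp1 at chr5:104434861-104435110 (plus strand) and Gpnmb at chr6:49036268-49036517 (plus strand).
Trem2: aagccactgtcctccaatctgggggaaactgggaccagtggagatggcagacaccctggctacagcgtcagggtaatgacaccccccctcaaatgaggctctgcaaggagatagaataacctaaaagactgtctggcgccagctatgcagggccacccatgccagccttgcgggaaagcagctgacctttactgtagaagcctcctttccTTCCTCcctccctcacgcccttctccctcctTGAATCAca
Spp1: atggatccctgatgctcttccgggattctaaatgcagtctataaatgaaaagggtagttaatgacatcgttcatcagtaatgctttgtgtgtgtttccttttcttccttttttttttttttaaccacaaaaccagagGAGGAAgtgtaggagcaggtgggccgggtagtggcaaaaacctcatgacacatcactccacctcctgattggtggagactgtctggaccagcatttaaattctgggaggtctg
Gpnmb: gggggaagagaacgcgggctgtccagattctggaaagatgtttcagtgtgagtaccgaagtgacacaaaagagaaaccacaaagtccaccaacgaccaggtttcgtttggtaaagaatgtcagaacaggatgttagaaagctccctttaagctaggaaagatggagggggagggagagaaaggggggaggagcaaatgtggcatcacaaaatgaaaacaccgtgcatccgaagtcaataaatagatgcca
The motifs were TGANTCA (AP-1), CACGTG (E-box), GAGGAA or TTCCTC (PU.1 core) and TTGCNNAA or TTNNGCAA (C/EBP), searched on both strands. Of the 6 members with a listed promoter, 3 held the PU.1 core (Trem2 at -40, Spp1 at -113 and Apoe at -250 from the start), against 23.3% of all 32851 promoters of this length. Trem2 also held a match at -9 to TGANTCA, the AP-1 pattern as searched, with A at the open base N. This pattern was found in 6.75% of all promoters, and the 2 matches of Trem2 do not overlap. Gpnmb held none. Neither the E-box (6.02% of all promoters) nor the C/EBP motif (9.56%) was found in the 6 windows. These matches are letters in a window and were not tested for binding. Only 1 window per gene was searched, although Apoe had 3 listed promoters and Spp1 had 2. The window of Lgals3 lay 6109 bases from the start of the gene in GENCODE. Tyrobp and Fabp5 had no entry.

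The libraries differed in composition. From 11785 to 14704 genes had at least 1 TPM (a unit that gives each gene's share of a library's transcripts, corrected for gene length), and the share of the TPM in the top 50 genes lay between 25.4% and 61.4%. KO D4 replicate 2 stood apart from the other KO D4 libraries, with 12961 genes and 51.1%. Gsdme, the targeted gene, was at 2.76, 4.85 and 3.16 TPM in WT D1 and at 1.53, 1.28 and 2.17 TPM in KO D1. The KO minus WT difference on the log2(TPM + 1) scale was -0.77, -0.70, -0.58 and -0.16 on the successive days, and the libraries of the 2 genotypes overlapped only on D14. None of these was called by the test described below, and Gsdme transcript was present in every library labelled KO. Mature myofibre markers, which check the labelled tissue, were present throughout and summed to between 37940 and 167400 TPM per library. The part of Gsdme that is deleted was not compared with the reads.

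The first question was how far injury raised these genes. In WT muscle 1 day after CTX all 8 were higher than in control muscle, by a median of 4.11 on the log2(TPM + 1) scale, against 0.66 over all 13041 genes tested. Called genes have an adjusted p under 0.05 in limma with Benjamini-Hochberg adjustment over all genes tested. All 8 were called, with adjusted p from 0.000615 to 0.0268, where 55.4% of all genes were called higher. Their libraries did not overlap with the controls, which held in this direction for 64.2% of all genes. The receptor was nearly silent before injury, as Trem2 was at 1.16, 0.86 and 0.56 TPM in the controls and at 94.6, 137 and 24.3 TPM on D1. Trem2 rose by 5.23 ± 0.55 (SE, n = 3 per group) on the log2 scale (limma, adjusted p = 0.00101). Spp1 was at 8.75, 4.59 and 5.23 TPM in the controls and at 859, 873 and 133 TPM on D1, a rise of 6.06 ± 0.66, the largest of the 8. Lgals3 followed with 5.58 ± 0.49, from 7.75, 10.96 and 7.6 TPM to 580, 897 and 189 TPM.

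The other 5 genes started from higher levels or rose less. Tyrobp went from 15.4 to 19.8 TPM in the controls to between 126 and 707 TPM, a rise of 4.13 ± 0.53. Gpnmb was between 1.86 and 2.25 TPM in the controls and between 21.5 and 82.1 TPM on D1, a rise of 4.10 ± 0.45. Fabp5 rose by 2.97 ± 0.39, from a range of 19.1 to 27.04 TPM to one of 91.0 to 288 TPM. Apoe was the most abundant of the 8 in control muscle, at 526, 505 and 413 TPM, and was at 1392, 1957 and 563 TPM on D1. It rose by 1.27 ± 0.41 (limma, adjusted p = 0.0268). Cd9, at 53.5, 45.3 and 42.6 TPM in the controls, rose least, by 0.89 ± 0.28 (limma, adjusted p = 0.0226). WT D1 replicate 3 was the lowest of the WT D1 libraries for all 8 genes, yet it stayed above every control. Leaving out 1 library at a time, from 6 to 8 of the genes were called, and the share of all genes called in those fits is not given here. In the methods, control muscle and injured muscle of this day belong to the first batch.

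**Figure D1:**
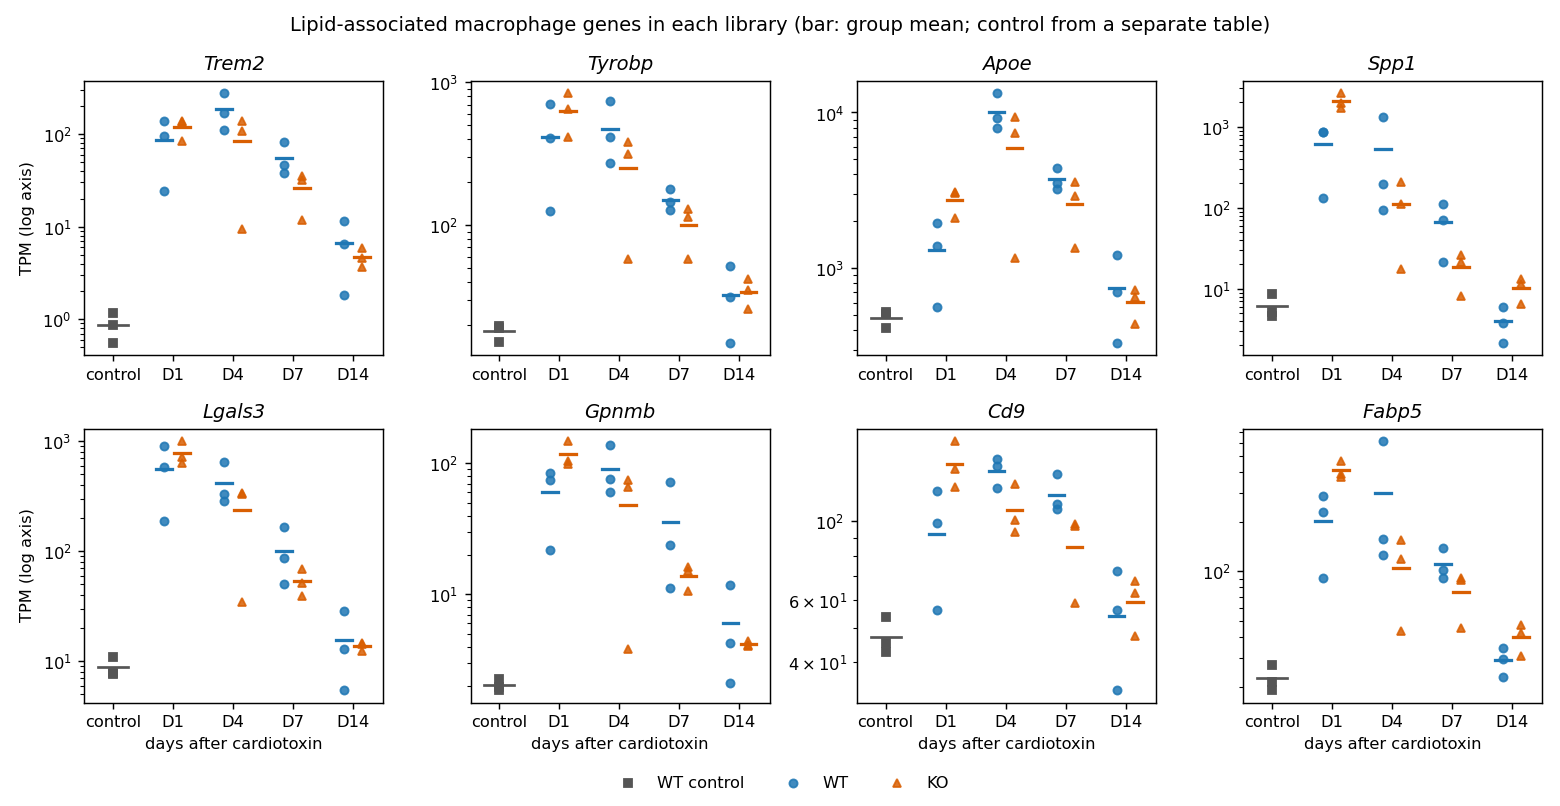
TPM of each gene on a log axis (y) in WT control muscle and on D1, D4, D7 and D14 after CTX (x), with 1 symbol per library and a bar at the mean of 3 libraries. The controls come from a separately quantified table. Trem2 ranged from 0.56 to 1.16 TPM in the controls and reached 274 TPM on D4 in WT muscle, and all 8 genes were lower on D14 than on D7 in WT muscle on average.

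Genes linked to the 8 by function were also compared between control and D1, where 55.4% of all genes were called higher. For the TREM2 and TYROBP signalling list, 10 of 10 were called higher (median 2.39), among them Syk, the kinase that TYROBP recruits (2.34), the phosphatase Ptpn6 (3.56), Plcg2 (2.62), Inpp5d (2.79), Lyn (2.61), Hcst (2.40), Btk (2.38), Adam10 (1.5), Cd33 (1.42) and Adam17 (1.32). Of the receptors that share TYROBP, 4 of 6 passed the filter and all 4 were called higher: Cd300lb (2.99), Sirpb1a (2.69), Clec5a (2.32) and Pilrb1 (2.31). Among 15 tested genes of other lipid-laden phagocytes, 12 were called higher, led by the scavenger receptor Msr1 (4.71), Clec7a (3.44), the elastase Mmp12 (3.38) and the cathepsin Ctsz (2.88). The other 8 called were Plin2 (2.63), Ctsb (2.48), Cd63 (2.36), Itgax (2.33), Lipa (2.27), Npc2 (2.13), Ctsl (1.72) and Ctsd (1.71). Axl, Lpl and Cd36 were not called, at 0.65, -0.02 and -0.13. Lpl and Cd36, a lipase and a fatty acid receptor, are also expressed by muscle and fat.

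Partners of single members split, and the counts called higher stand beside 55.4% of all genes. Of 11 genes around APOE and cholesterol efflux, 7 were called higher and 2 lower. Among them Apoc2 (4.5), the cholesterol esterifying enzyme Soat1 (3.29), the receptor Lrp1 (1.70), the transporter Abcg1 (1.90) and the liver X receptors Nr1h2 (0.97) and Nr1h3 (0.59) rose, and Apoc1 (-1.76) and Pltp (-0.54) fell. For the osteopontin receptors, 5 of 8 were called higher: Cd44 (3.73), Itga5 (2.89), Itgb1 (1.3), Itgav (1.28) and Itga9 (0.60). Fabp3, a fatty acid binding protein of muscle, fell by 1.88, whereas Fabp4, that of fat and endothelium, was at 0.16 and not called. Of the other galectins and the galectin 3 binding protein, 4 of 5 were called higher (Lgals3bp 2.83, Lgals9 2.23, Lgals1 1.58 and Lgals8 1.5) and Lgals4 was called lower (-0.62). For the tetraspanins and partners of CD9, 6 of 7 were called higher, namely Cd53 (3.74), Cd37 (2.42), Igsf8 (1.85), Cd82 (1.56), Cd151 (0.76) and Cd81 (0.53), and Tfe3 (1.36), Mitf (0.70) and Tfeb (0.50), transcription factors of lysosomal genes, were called higher in 3 of 3 tested. General macrophage markers were called higher in 10 of 10 (median 2.59) and recruited monocyte markers in 6 of 6 (median 4.69), and 6 of 6 tested neutrophil markers were called higher as well (median 3.50). The part of these cells in the rise of the 8 genes was not tested.

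After D1 the genes took different courses in WT muscle. If the WT D1 libraries came from the first batch described, day and batch cannot be told apart between D1 and D4. Apoe alone was called between D1 and D4. It was at 1387, 1951 and 561 TPM on D1 and at 13239, 9259 and 7915 TPM on D4, a rise of 3.10 ± 0.62 on the log2 scale (limma, adjusted p = 0.00174), where 19.8% of all genes were called in this step and 14.6% were called higher. Cd9, from 56.0 to 122 TPM on D1 to between 124 and 150 TPM on D4, did not overlap either but was not called (0.65 ± 0.28, limma adjusted p = 0.108). Non-overlap towards higher levels was seen in 22.1% of all genes. Trem2 was higher on D4 on average, at 274, 169 and 112 TPM against 94.4, 137 and 24.3 TPM, and its libraries overlapped (1.33 ± 0.78, limma adjusted p = 0.258). For Spp1 the D4 libraries were spread over 94.2, 197 and 1312 TPM, so that the difference from D1 (-0.67 ± 0.93) was smaller than its error. Pltp, the phospholipid transfer protein, rose with Apoe in this step (3.48), and Abca1, a cholesterol exporter, rose by 1.59, with Vldlr called lower (-1.10). Of the other genes of lipid-laden phagocytes only Axl (1.10) was called, and of the receptors of osteopontin Itgb3 (1.60) and Itgb5 (0.78) were. Ptgfrn (1.60) and Cd81 (0.97), partners of CD9, and Lgals1 (1.08) were called higher, and Cd151 (-0.57), Trem3 (-1.22) and Tfeb (-0.70) lower. Of the general macrophage markers the 3 complement genes C1qa (1.90), C1qb (1.74) and C1qc (1.93) and the receptor Csf1r (1.52) were called higher in this step, as 4 of 10, while the monocyte markers Chil3 (-3.43) and Ly6c2 (-3.06) were called lower. Markers of fibro-adipogenic progenitors, the stromal cells of muscle, were called higher in 5 of 7, namely Col1a1 (3.09), Col3a1 (2.64), Dpt (1.69), Lum (1.56) and Pi16 (1.10), and myogenic markers in 6 of 7 (median 2.03). The stromal markers summed to 1320.0, 1856 and 1130.0 TPM in WT D1 and to 6647, 6556 and 7323 TPM in WT D4 muscle. The part of these cells in the rise of Apoe was not tested.

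Between D4 and D7 in WT muscle all 8 genes were lower on average, with a median difference of -1.59 against -0.24 over all genes, and none was called, where 9.31% of all genes were called lower. The lowest adjusted p was 0.0592 (limma), for Lgals3, which went from between 287 and 646 TPM to between 50.5 and 164 TPM. In this step 5 of 8 had an unadjusted p under 0.05, as did 33.5% of all genes, and 4 did not overlap (Trem2, Tyrobp, Apoe and Lgals3), as did 33.2% of all genes in this direction. The count depended on the fit, since 6 were called without KO D4 replicate 2, which enters the shared estimate of the spread, and 7 with library quality weights. The share of all genes called in these fits is not given here, so these counts are not read as a result about the 8 genes. Linked genes that fell in this step were the cathepsins Ctsb (-1.39) and Ctsd (-1.23) and Cd63 (-1.15) among the genes of lipid-laden phagocytes (3 of 17), Apoc2 (-2.77) and Pltp (-1.28) among those of APOE and cholesterol efflux, Itgb5 (-0.86), Cd82 (-1.24) and Lgals1 (-1.58). Vldlr (1.13) and Fabp4 (0.89) rose, and no gene of TREM2 and TYROBP signalling was called.

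Between D7 and D14 in WT muscle all 8 fell (limma, adjusted p from 0.00927 to 0.0439). In this step 30.9% of all genes were called lower. The top 50 genes held 41.9%, 46.7% and 47.0% of the TPM in WT D7 and 57.3%, 57.4% and 61.4% in WT D14. The part of this change in the lower levels was not tested. The median difference was -2.40 for the 8 genes and -0.45 for all genes, and 7 of the 8 did not overlap (all but Gpnmb), as did 58.9% of all genes in this direction. Spp1 went from 112, 70.3 and 21.2 TPM to 3.81, 5.9 and 2.17 TPM and fell by 3.58 on the log2 scale (SE 0.93). Trem2 went from 82.9, 46.4 and 38.2 TPM to 6.5, 11.6 and 1.81 TPM, a log2 difference of -3.07 ± 0.78. Lgals3 (-2.71 ± 0.73), Apoe (-2.49 ± 0.62), Tyrobp (-2.31 ± 0.64), Gpnmb (-2.24 ± 0.82), Fabp5 (-1.89 ± 0.52) and Cd9 (-1.19 ± 0.28) followed. None was called when either WT D7 replicate 1 or WT D14 replicate 3 was left out, although the direction held for all 8. Calls over all genes in those fits are not given here. The libraries left out were at the upper end of D7 and the lower end of D14 for all 8 genes.

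With the 8 genes fell 10 of 17 other genes of lipid-laden phagocytes, among them Mmp12 (-3.03), Clec7a (-2.41), Itgax (-2.03), Ctsz (-1.80), Lipa (-1.70), Npc2 (-1.40), Ctsb (-1.39), Cd63 (-1.35), Axl (-1.08) and Ctsd (-0.75). The osteopontin receptors Cd44 (-3.12), Itga5 (-1.92), Itgb3 (-1.87), Itga9 (-1.05) and Itgb1 (-1.04) were called lower (5 of 8). So were 5 of 10 genes of TREM2 and TYROBP signalling, namely Ptpn6 (-1.99), Lyn (-1.44), Btk (-1.22), Adam10 (-1.18) and Adam17 (-1.01). Soat1 (-1.99), Abcg1 (-1.91), Abca1 (-1.41), Pltp (-1.32) and Lrp1 (-1.12) fell among the 11 genes of APOE and cholesterol efflux. Tetraspanins and partners of CD9 were called lower in 6 of 7, from Cd53 (-2.04), Ptgfrn (-1.56), Cd82 (-1.53), Igsf8 (-1.11) and Cd81 (-0.99) to Cd151 (-0.29). Lgals3bp (-2.21), Lgals1 (-1.52), Lgals9 (-1.49), Cd300lb (-1.64) and Tfe3 (-0.88) fell as well. Of the 10 general macrophage markers 9 were called lower (median -1.98), beside 5 of 7 myogenic markers (median -3.31). Over all genes, 30.9% were called lower in this step.

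The levels on D14 stood at different distances from control muscle, which was quantified in another table, so that no test was made. For Trem2 the WT D14 mean was 7.71 times the control mean and all 3 libraries lay above every control. Gpnmb was at 3.01 times, Tyrobp at 1.81 times, Lgals3 at 1.79 times, Apoe at 1.56 times, Fabp5 at 1.29 times and Cd9 at 1.14 times the control mean. Spp1 alone had a WT D14 mean below the control mean, at 0.640 times. In KO D14 muscle Spp1 was at 1.67 times and Trem2 at 5.47 times the control mean. At their highest group means, the genes reached 337.5 times (Spp1), 215 times (Trem2), 89.5 times (Lgals3), 58.0 times (Gpnmb), 35.0 times (Tyrobp), 21.1 times (Apoe), 18.2 times (Fabp5) and 3.08 times (Cd9) the control mean. The highest mean was that of WT D4 for Trem2 and Apoe, and that of KO D1 for the other 6 genes.

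In KO muscle 3 of the 8 were called lower between D1 and D4, where 12.2% of all genes were called lower and 19.4% were called in either direction. Spp1 was at 2581, 1699 and 1986 TPM on D1 and at 206, 17.4 and 112 TPM on D4, a log2 difference of -4.77 ± 0.93 (limma, adjusted p = 0.00222). Fabp5 fell from between 371 and 466 TPM to between 43.6 and 155 TPM (-2.12 ± 0.52, limma adjusted p = 0.00984). Lgals3 went from between 633 and 1002 TPM to 334, 34.4 and 336 TPM (-2.28 ± 0.73, limma adjusted p = 0.0347). Tyrobp (-1.66 ± 0.64) and Gpnmb (-2.0 ± 0.82) did not overlap and were not called, as 5 of the 8 did not overlap against 19.8% of all genes in this direction. Apoe was the exception, with 3021, 2086 and 3091 TPM on D1 and 9358, 1165 and 7340.4 TPM on D4 (0.68 ± 0.62, not called). The 6 receptors that share TYROBP were all called lower in this step, namely Trem1 (-3.03), Trem3 (-2.52), Clec5a (-2.17), Sirpb1a (-1.98), Cd300lb (-1.67) and Pilrb1 (-1.54). Of the genes of TREM2 and TYROBP signalling 4 of 10 were called lower, Ptpn6 (-1.89), Plcg2 (-1.67), Btk (-1.55) and Lyn (-1.31), and of the other genes of lipid-laden phagocytes 6 of 17 were, namely Msr1 (-3.58), Plin2 (-2.36), Ctsl (-1.44), Ctsd (-1.41), Cd63 (-0.98) and Cd36 (-0.90). Pltp rose (2.76), as the 1 gene of APOE and cholesterol efflux called higher, beside Apoc2 (-3.44) and Soat1 (-1.78), which fell. Cd53 (-2.16), Cd151 (-0.64), Lgals8 (-0.77), the integrin Itga5 (-1.21) and the transcription factor Tfec (-1.39) fell as well, and Lgals4 rose (0.90). Monocyte markers (4 of 6) and neutrophil markers (5 of 6) were called lower as well. Among the general macrophage markers Itgam (-2.96), Fcgr1 (-2.56) and Cd68 (-2.19) were called lower, and Aif1, Mertk and Adgre1 were lower and not called. C1qa (0.53), C1qc (0.40), C1qb (0.15) and Csf1r (0.12) were above 0 and not called. The part of these cells in the values of the 8 genes was not tested. With only the groups compared in the fit, 1 of the 8 was called, and without KO D4 replicate 1, 5 were. Calls over all genes in these fits are not given here.

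From D4 to D7 and from D7 to D14 none of the 8 was called in KO muscle, although all 8 were lower on average in both steps (medians -1.0 and -1.48). The limma test called no gene at all in the first of these steps (2 of the 8 and 9.89% of all genes had an unadjusted p under 0.05) and 0.56% of all genes in the second (0.477% lower), where 4 of the 8 and 19.3% of all genes had an unadjusted p under 0.05. In the second step 5 of the 8 did not overlap, as did 25.7% of all genes in this direction, with Apoe at -2.02 ± 0.62 (limma, adjusted p = 0.125) and Trem2 at -2.14 ± 0.78 (limma, adjusted p = 0.167). The count of the first step depended on 1 library, since 5 of the 8 were called without KO D4 replicate 2. That library was the lowest of the KO D4 libraries for 7 of the 8 genes. In the second step 7 were called with library quality weights and 5 with only the groups compared in the fit. How many of all genes were called in the alternative fits of both steps is not given here. These counts are therefore not read as a result about the 8. The second step was compared between genotypes as the KO minus WT difference on D14 less that on D7. None of the 8 was called (limma, adjusted p from 0.809 to 0.845, with 0.0% of all genes called). All 8 values were above 0, with a median of 0.86 against 0.27 over all genes, of which 83.3% were higher.

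Ordered by mean level, the groups formed a chain of overlapping neighbours for most genes. Trem2 was highest in WT D4, followed by KO D1, WT D1, KO D4, WT D7, KO D7, WT D14 and KO D14, and the neighbours free of overlap were WT D7 with KO D7 and KO D7 with WT D14. Apoe followed the order WT D4, KO D4, WT D7, KO D1, KO D7, WT D1, WT D14 and KO D14, with overlap between all neighbours but WT D7 and KO D1. For Spp1, KO D1 lay above WT D1 and KO D14 above WT D14 without overlap, for Lgals3 KO D7 above WT D14, and for Tyrobp KO D7 above KO D14. Neighbours of Gpnmb, Cd9 and Fabp5 all overlapped. The highest injured group mean was 527.5 times the lowest for Spp1, 57.0 times for Lgals3, 39.3 times for Trem2, 27.9 times for Gpnmb, 19.4 times for Tyrobp, 16.8 times for Apoe, 14.1 times for Fabp5 and 2.69 times for Cd9.

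**Figure D2:**
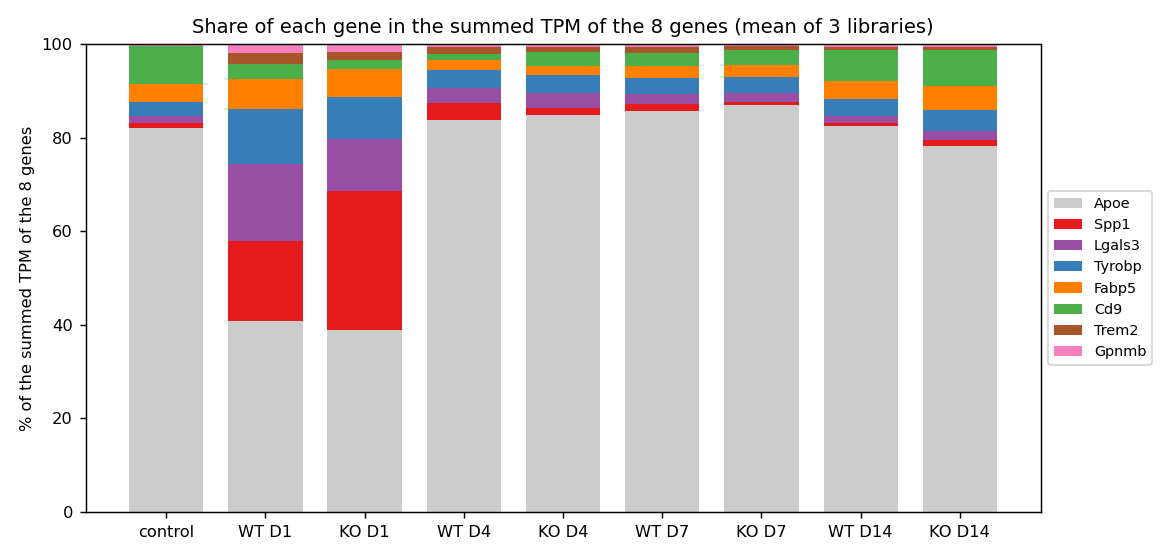
Share of each gene in the summed TPM of the 8 genes (y, %), averaged over 3 libraries, in control muscle and in each genotype and day (x). Spp1 held 17.1% on D1 in WT and 29.7% in KO muscle, and Apoe held 83.8% and 84.9% on D4.

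The makeup of the summed signal moved with the day. In control muscle Apoe held 82.0% of the TPM of the 8 genes and Spp1 held 1.05%. On D1 Apoe held 40.8% in WT and 38.8% in KO muscle, with Spp1 at 17.1% and 29.7%, Lgals3 at 16.3% and 11.3%, and Tyrobp at 11.8% and 8.96%. By D4 Apoe was back at 83.8% in WT and 84.9% in KO muscle. On D14 Spp1 held 0.461% in WT muscle, with a range of 0.411 to 0.522%, and 1.32% in KO muscle, with a range of 1.14 to 1.57%, so that the genotypes did not overlap. These shares describe how the genes varied relative to each other and were not tested.

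The main question of the design was whether the loss of Gsdme changed these genes. On no day was any of the 8 called between KO and WT muscle. The limma test called 1 gene of all 15718 on D1 (0.00636%) and 0.0% on D4, D7 and D14. The average over the days gave 0 of the 8 as well (0.00636% of all genes called), with differences from -0.56 (Trem2) to 0.00 (Cd9). An unadjusted p under 0.05 was found for 0 of the 8 on D7, on D14 and in the average, and for 3.06%, 2.06% and 3.54% of all genes. With 3 libraries against 3, the smallest p that an exact permutation can give is 0.1, so that single values could not pass 0.05 by permutation on 1 day. The direction of the averages was not the same on all days.

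**Figure D3:**
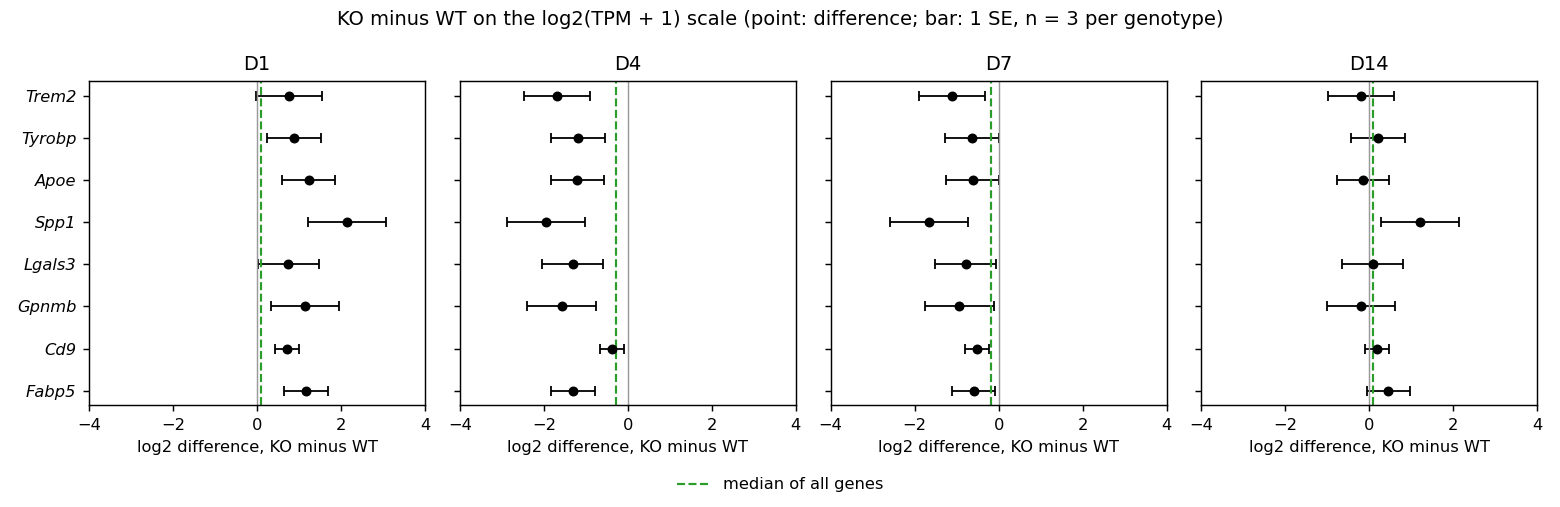
KO minus WT difference of each gene (y) on the log2(TPM + 1) scale (x) on each day, with a bar of 1 SE from limma (n = 3 per genotype). The dashed line is the median of all 15718 genes. All 8 genes lay above 0 on D1 and below 0 on D4 and D7, and none was called.

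On D1 all 8 genes were higher in KO than in WT muscle on average, with a median difference of 1.01 against 0.09 over all genes, of which 63.7% were higher. Spp1 was at 2581, 1699 and 1986 TPM in KO and at 859, 872 and 133 TPM in WT muscle. Its difference of 2.15 ± 0.93 was the largest (limma, adjusted p = 0.873), and every KO library lay above every WT library. The libraries of 5 of the 8 did not overlap (Apoe, Fabp5, Spp1, Gpnmb and Cd9), where 3.33% of all genes had all KO libraries higher. For Apoe the difference was 1.23 ± 0.62, with 3021, 2086 and 3091 TPM in KO against 1387, 1951 and 561 TPM in WT muscle. Fabp5 was at 466, 371 and 389 TPM against 229, 288 and 90.9 TPM (1.16 ± 0.52). Gpnmb was at 148, 105 and 98.5 TPM against 74.1, 83.8 and 22.0 TPM (1.14 ± 0.82), and Cd9 was at 169, 125 and 141 TPM against 98.96, 122 and 56.0 TPM (0.71 ± 0.28). For Tyrobp (0.88 ± 0.64), Trem2 (0.75 ± 0.78) and Lgals3 (0.74 ± 0.73) the genotypes overlapped. Unadjusted p was under 0.05 for Spp1, Fabp5 and Cd9, and for 5.38% of all genes.

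Other genes moved beside the 8 on D1, none of them called. All 10 general macrophage markers were higher on average in KO muscle (median 0.47), as were all 10 genes of TREM2 and TYROBP signalling (0.77), all 6 receptors that share TYROBP (0.98) and all 8 osteopontin receptors (0.46). Over these lists, the genes of lipid-laden phagocytes and those around APOE, the extremes were Cd33 (1.67), Trem1 (1.27), Apoc2 (1.25), Clec5a (1.22) and Apoc1 (1.06) at the upper end, and Vldlr (-0.40), Mmp12 (-0.10) and Nr1h2 (-0.10) at the lower end. Neutrophil markers were higher in 6 of 6 (median 1.5, from Mmp9 at 0.99 to S100a8 at 2.06), and their summed level was from 65.1 to 669 TPM in WT and from 304 to 3670.0 TPM in KO muscle. WT D1 replicate 3 was lowest for all 8 members, and without it their median difference was 0.47, the smallest value on leaving out 1 library. The part of these cells and of this library in the differences was not tested. WT D1 belongs to both batches as described, and if its libraries came from the first, genotype and batch cannot be told apart on D1.

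On D4 all 8 genes were lower in KO muscle on average. The median difference was -1.31 against -0.28 over all genes, of which 76.2% were lower. Trem2 was at 137, 9.42 and 109 TPM in KO and at 274, 169 and 112 TPM in WT muscle (-1.69 ± 0.78, limma adjusted p = 0.215). Spp1 was at 206, 17.4 and 112 TPM against 1312, 197 and 94.2 TPM (-1.95 ± 0.93, limma adjusted p = 0.220). The other differences were -1.58 ± 0.82 for Gpnmb, -1.31 ± 0.73 for Lgals3, -1.30 ± 0.52 for Fabp5, -1.20 ± 0.62 for Apoe, -1.18 ± 0.64 for Tyrobp and -0.38 ± 0.28 for Cd9. None of the 8 was free of overlap, where 11.2% of all genes had all KO libraries lower, and 3 of 8 had an unadjusted p under 0.05 beside 22.7% of all genes. Without KO D4 replicate 2 and WT D4 replicate 1, the lowest and the highest of their groups for 7 of the 8 genes, the median difference was -0.0021, and Spp1 (0.16), Lgals3 (0.13), Gpnmb (0.06) and Tyrobp (0.04) were above 0.

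Linked genes were also lower on average in KO D4 muscle, in 15 of 17 genes of lipid-laden phagocytes (median -0.89), 10 of 10 of TREM2 and TYROBP signalling (-0.71), 9 of 11 around APOE (-0.67) and 8 of 8 osteopontin receptors (-0.62), with none called. Their extremes were Apoc2 (-1.66), Cd44 (-1.37), Msr1 (-1.34) and Ptpn6 (-1.32), and at the other end Apoc1 (1.05), Vldlr (0.69), the lipase Lpl (0.66) and Cd36 (0.32). General macrophage markers were lower in KO D4 muscle in 10 of 10 (median -1.09), myogenic markers in 7 of 7 (-1.64) and neutrophil markers in 6 of 6 (-1.09), whereas myofibre markers were higher in 8 of 8 (0.71) and adipocyte markers in 7 of 7 (1.14). None was called. The summed level of the general macrophage markers was 1996, 341 and 1667 TPM in KO and 3510.0, 2031 and 1624 TPM in WT muscle, with the same library lowest. The part of these cells in the lower levels was not tested. The top 50 genes held 33.5%, 51.1% and 39.3% of the TPM in KO D4 and 25.4%, 33.2% and 35.0% in WT D4. The part of this share was not tested either.

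On D7 all 8 genes were lower in KO muscle on average, as were 79.0% of all genes, with a median difference of -0.71 against -0.19 over all genes and adjusted p of 0.776 for each (limma). Trem2 was at 35.7, 11.9 and 31.6 TPM in KO and at 82.9, 46.4 and 38.2 TPM in WT muscle, and Cd9 was at 97.0, 58.7 and 98.2 TPM against 136, 112 and 109 TPM. These 2 genes did not overlap, where 14.6% of all genes had all KO libraries lower. Spp1 had the largest difference (-1.66 ± 0.93) and overlapped. The other differences lay between -0.93 ± 0.82 (Gpnmb) and -0.59 ± 0.52 (Fabp5). General macrophage markers were lower in 10 of 10 (median -0.55), and myogenic markers in 7 of 7 (-0.68), with none called.

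On D14 the genes were mixed, with 5 higher and 3 lower and a median of 0.14 against 0.08 over all genes, of which 71.5% were higher. Spp1 was at 6.55, 13.1 and 11.4 TPM in KO and at 3.81, 5.9 and 2.17 TPM in WT muscle, and was the only member without overlap (1.22 ± 0.93, limma adjusted p = 1.00), where 7.37% of all genes had all KO libraries higher. For the other 7 genes the differences lay between -0.19 (Gpnmb) and 0.46 (Fabp5). Beside them, adipocyte markers were higher in 7 of 7 in KO D14 muscle (median 3.16, none called).

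The change of sign between D1 and D4 was tested directly as the KO minus WT difference on D4 less that on D1. If WT D1 came from the first batch described, batch enters this difference and cannot be told apart from it. All 8 values were below 0, with a median of -2.43 against -0.38 over all genes, and none was called (limma, adjusted p from 0.204 to 0.221, with 0.0% of all genes called). Spp1 had the largest value (-4.09 ± 1.31), and Cd9 the smallest (-1.09 ± 0.40). An unadjusted p under 0.05 was found for 7 of the 8, all but Lgals3, and for 23.3% of all genes. An F test of any difference between the days called 0 of the 8 (limma, adjusted p from 0.527 to 0.539), with an unadjusted p under 0.05 for 3 of the 8 (Spp1, Fabp5 and Cd9) and for 7.65% of all genes. Without the 2 D4 libraries named above, the D4 less D1 values lay between -1.99 (Spp1) and -0.61 (Lgals3).

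Each of the 8 genes was also set against the mean of 10 general macrophage markers (Adgre1, Cd68, Csf1r, Itgam, Mertk, Fcgr1, C1qa, C1qb, C1qc and Aif1) in the same library. The markers did not all move together between days. From D1 to D4, C1qa differed by 1.90 and Itgam by -0.83 in WT muscle, and by 0.53 and -2.96 in KO muscle. Their mean is therefore a reference and not a measure of macrophage content alone. On this relative log2 scale, the D4 difference between KO and WT muscle had a median of -0.18, where the difference in level itself had -1.31. The D7 median was -0.16 instead of -0.71. On D1 the 8 genes were still all higher in KO muscle, with a median of 0.51 instead of 1.01. Without WT D1 replicate 3, Trem2 was at 0.00, Lgals3 at 0.08, Tyrobp at 0.17 and Cd9 at 0.37. In the same setting Gpnmb was at 0.52, Fabp5 at 0.64, Apoe at 0.69 and Spp1 at 1.23. Without WT D1 replicate 2, Cd9 was at 0.02. The relative level of Spp1 on D1 was from 4.29 to 4.59 in KO and from 2.00 to 3.58 in WT muscle, that of Apoe from 4.76 to 4.93 and from 4.07 to 4.27, and that of Fabp5 from 1.94 to 2.40 and from 1.31 to 1.67, with no overlap for these 3. Trem2 was lower relative to the markers in KO muscle on D4 (-0.56 ± 0.37) and D7 (-0.55 ± 0.25), without overlap on either day. The D4 value was -0.20 without KO D4 replicate 2, and the D7 value was -0.35 without WT D7 replicate 1. Cd9 had the opposite sign on D4 (0.75 ± 0.88), with overlap, and was at -0.04 without KO D4 replicate 2. Spp1 was higher relative to them on D14 (1.19 ± 0.20), from -0.43 to 0.26 in KO and from -1.32 to -1.21 in WT muscle. These relative values are descriptions, with no test.

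**Figure D4:**
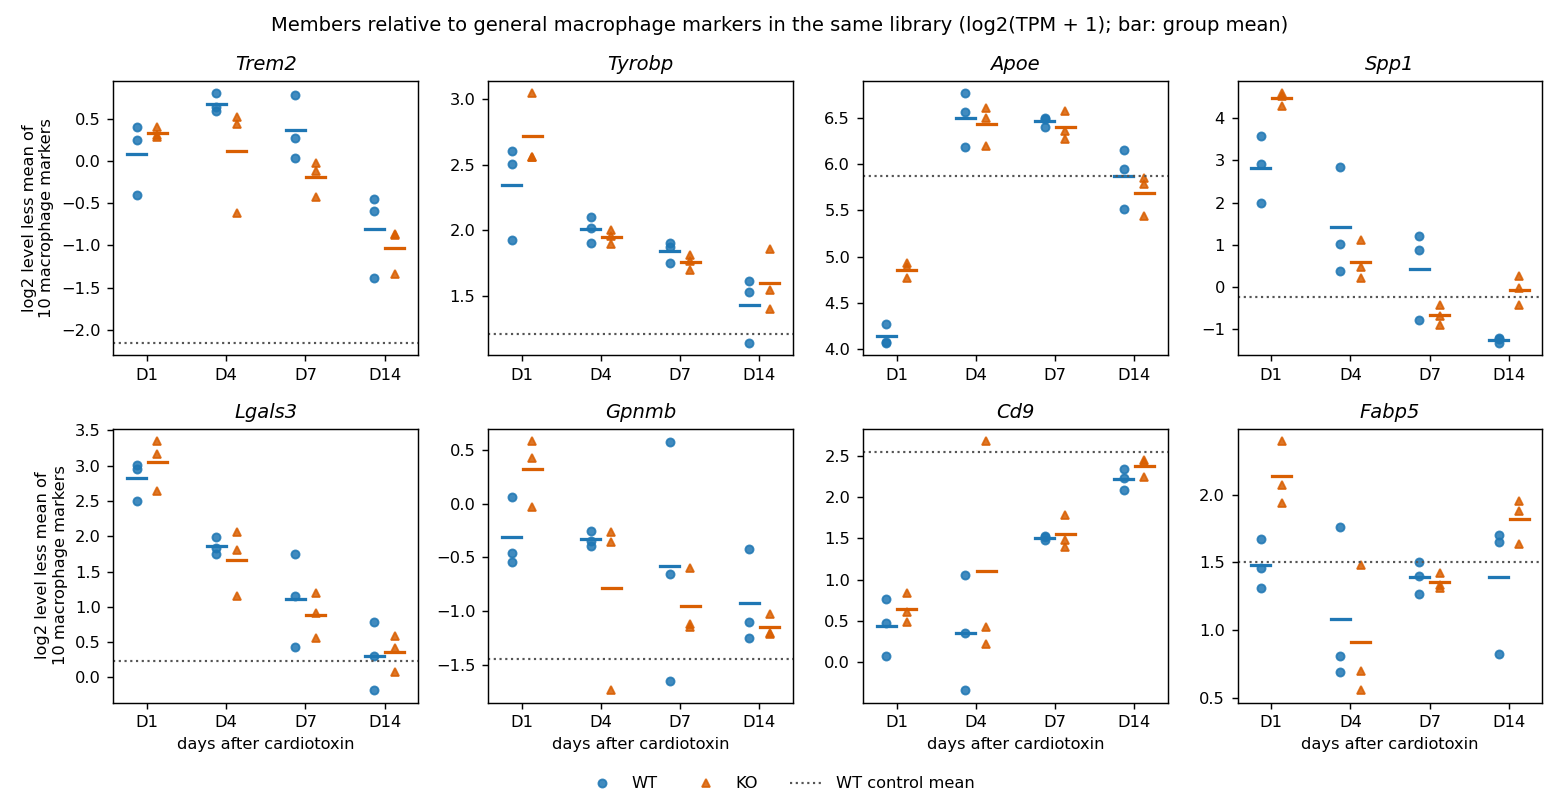
Level of each gene on the log2(TPM + 1) scale less the mean of 10 general macrophage markers in the same library (y) on each day (x), with 1 symbol per library, a bar at the mean of 3 libraries and a dotted line at the mean of the controls. In WT muscle Apoe went from 4.14 on D1 to 6.51 on D4, while Lgals3 went from 2.82 on D1 to 0.30 on D14.

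The relative values also separated the courses of the genes in WT muscle. The control values come from the separately quantified table, and the batch of WT D1 is unknown. Apoe gained on the markers, from a mean of 4.14 on D1 to 6.51 on D4, and kept 6.46 on D7 and 5.87 on D14, beside 5.87 in control muscle. Spp1 lost ground at each day, from 2.83 to 1.42, 0.43 and -1.25, and Lgals3 did so from 2.82 to 1.86, 1.11 and 0.30. Tyrobp moved less, at 2.34, 2.01, 1.84 and 1.43. Trem2 was highest on D4 (0.08, 0.68, 0.36 and -0.81), and even on D14 was above the control value of -2.15. In the controls Trem2 was between 0.56 and 1.16 TPM, near the 1 TPM added before the log, so this value lies near the floor. Cd9 went the other way, from 0.44 on D1 to 2.22 on D14, close to 2.55 in control muscle.

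Spp1 lies on chromosome 5 at 104435118 to 104441050 (plus strand, GRCm38, GENCODE M21), and the 1 gene called on D1 lies inside it. This gene, Gm42793, an unverified single-exon transcript at 104435121 to 104436372 on the same strand, was described after its values were seen. It starts 3 bases after Spp1 does, and of its 1252 bases 309 fall in an exon of Spp1 and 943 in none. Gm42793 was at 4.05, 3.02 and 4.16 TPM in KO D1 and at 1.13, 0.51 and 0.00 TPM in WT D1 muscle, a difference of 1.68 ± 0.24 (limma, adjusted p = 0.0209). On D4 it was at 0.97, 0.10 and 0.08 TPM in WT and at 0.43, 0.00 and 0.05 TPM in KO muscle, and it was listed at 0 in all D7 and D14 libraries. Where it was above 0, it stood at 0.0446 to 0.210% of the TPM of Spp1. Both genes lie on 1 strand, so reads from the shared bases or from unspliced Spp1 RNA cannot be told apart from Gm42793, and the call was lost with a pseudocount of 0.1 TPM.

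**Figure D5:**
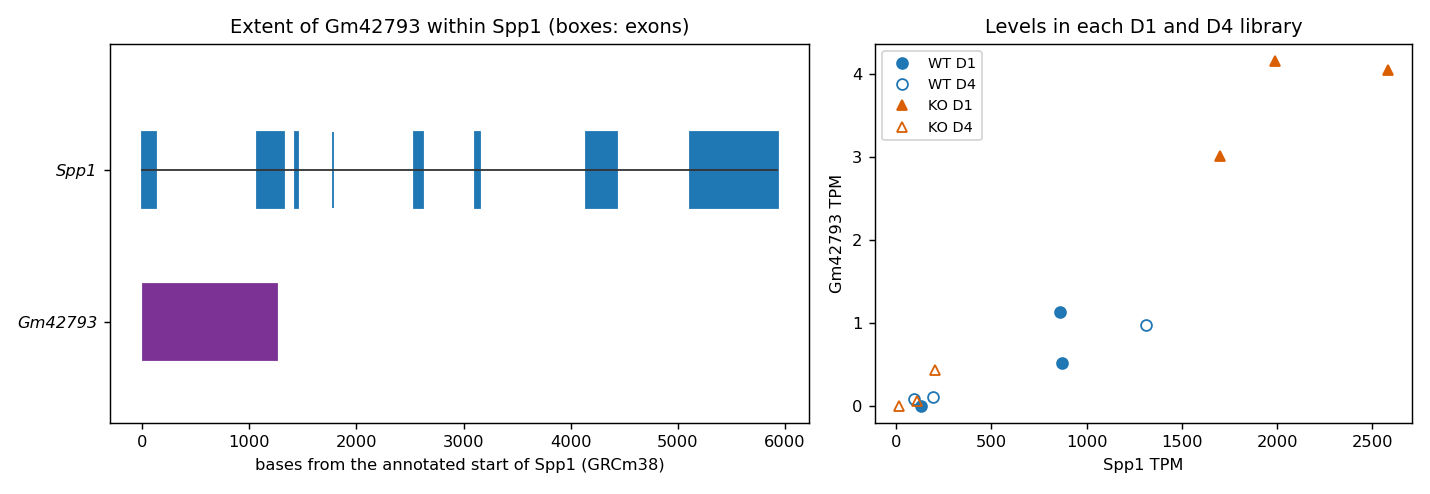
Left, extent of Gm42793 within Spp1 in bases from the start of Spp1 (x), with boxes for exons of any transcript. Right, TPM of Gm42793 (y) against TPM of Spp1 (x) in each D1 and D4 library, where the 3 KO D1 libraries are the highest for both genes, from 1699 TPM of Spp1 and 3.02 TPM of Gm42793 upwards.

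The other members lie apart from each other, except that Apoe and Tyrobp share chromosome 7 and Gpnmb and Cd9 share chromosome 6. Trem2 is at 48346401 to 48354147 on chromosome 17 (plus), Tyrobp at 30413760 to 30417585 (plus) and Apoe at 19696109 to 19699188 (minus) on chromosome 7, Fabp5 at 10012548 to 10016607 on chromosome 3 (plus), Lgals3 at 47367751 to 47386160 on chromosome 14 (plus), and Gpnmb at 49036546 to 49070929 (plus) and Cd9 at 125460266 to 125494791 (minus) on chromosome 6. All are protein coding. Cd9 overlaps 2 genes on the other strand, Gm28809 and Gm26728, which were at most at 1.51 and 0.30 TPM. Whether reads were counted by strand is not stated, so that reads of these genes and Cd9 cannot be told apart.

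The courses of the 8 genes were compared by the root mean square (RMS) difference of their centred log2 levels over the 24 injured libraries, as a description. The closest pairs were Tyrobp with Gpnmb (0.487) and Trem2 with Tyrobp (0.500), and the farthest were Spp1 with Cd9 (2.53) and Apoe with Spp1 (2.47). Of genes outside the 8, those nearest to their mean course were Fcer1g (0.224), Apobec1 (0.264), C3ar1 (0.265), Cdc20 (0.280) and Lgmn (0.282), where the mean course itself had an RMS of 1.65. Trem2 was nearest to Mpeg1 (0.278) and Cd300c2 (0.301), and Tyrobp to Fcer1g (0.172), another adaptor of immune receptors, and Spi1 (0.209), which encodes PU.1. Gpnmb was nearest to the cathepsin Ctss (0.406) and Mpeg1 (0.423), and Lgals3 to Cd68 (0.415) and Fcgr1 (0.487). The nearest genes of the others were of different kinds, Csrp2 (0.355) and the proteoglycan Bgn (0.372) for Apoe, the glycolytic enzyme Pgam1 (0.291) and Litaf (0.304) for Fabp5, and the glycolytic enzyme Pfkp (0.206) and Pea15a (0.206) for Cd9. Spp1 was nearest to the chemokine Ccl2 (1.00) and Apoc2 (1.02). The RMS difference is not scaled to the range of a gene, and the course of Spp1 itself had an RMS of 2.96, that of Cd9 one of 0.586. Distances of different members are therefore not compared.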

How the data were processed

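Whole muscle of 27 libraries was sequenced as paired-end total RNA (SMARTER kit). The authors deposited TPM per gene in 2 tables quantified separately, 1 of the 24 injured libraries and 1 of the 3 control and the same 3 WT D1 libraries. The build is mm10 per the submitters' processing notes, and the aligner, counter and annotation are not given in the sources used here. TPM keep no depth, so that depth per library is unknown and no counting interval is given. Genes with at least 1 TPM in at least 3 libraries (15718 and 13041) were kept, and log2(TPM + 1) values were fitted with limma 3.58.1 (R 4.3.3), with 1 mean per group, an intensity trend and Benjamini-Hochberg adjustment over all genes tested. Folds on this scale understate the change of low genes. Control muscle was tested against WT D1 within its own table. Tables were made with pandas 2.3.3 and numpy 2.4.6 in Python 3.11.15, and the fit was tested on simulated data.

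The members and lists were chosen with earlier results of these data known. All 8 members are named, with the called genes of each linked list or else its 2 highest and 2 lowest, and the nearest genes by RMS difference. 1 gene of these lists is not reported here. Alternatives were the pseudocount, the filter, 3 scalings, library quality weights, the replicate number as a block, the groups in the fit and leaving out each library. Same-numbered libraries of different groups had correlations of their deviations from -0.475 to 0.442 (median 0.0055). Those with other numbers had correlations from -0.476 to 0.491 (median 0.0015). No pairing by number was seen, although values this widely spread cannot exclude it.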

Additional observations from a re-analysis of the deposited data

Results flagged for a closer look

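Cd9, the tetraspanin with the smallest range of levels among the 8 genes, had differences of opposite direction on 2 days. The KO minus WT difference was 0.71 on D1, where every KO library lay above every WT library, and -0.52 on D7, where every KO library lay below every WT library (n = 3 per genotype and day). The difference between D1 and D7 was not tested as such. Of all genes, 63.7% were higher on D1 and 79.0% lower on D7, and 3.33% and 14.6% did not overlap in these directions. Relative to the general macrophage markers, Cd9 was at 0.20 on D1 and 0.04 on D7, with overlap on both days. If WT D1 came from the first batch described, genotype and batch cannot be told apart on D1. The F test of any change between the days gave Cd9 an unadjusted p of 0.0222 (limma, adjusted p = 0.527).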

How the results depend on the processing

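None of the 8 genes was called between KO and WT on any day, on average or in the changes between days, under any alternative run. With the replicate block every count of members called was the same, 0 in each KO minus WT comparison, 8 against control, 1, 0 and 8 in the WT steps and 3, 0 and 0 in the KO steps, and the numbers were not shown to pair the libraries. The cause of the changes below was not tested unless it is named.

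The number of members called from D1 to D4 in WT was 0 with the 50 most abundant genes removed, Apoe being among those removed. From D4 to D7 in WT it was 1 with quantile normalization, 7 with quality weights and 4 with only the groups compared in the fit. It was 1 with only those groups from D1 to D4 in KO, and 7 with quality weights and 5 with only those groups from D7 to D14 in KO. Leaving out 1 library, it was 1 to 2 (D1 to D4), 0 to 6 (D4 to D7) and 0 to 8 (D7 to D14) in WT, and 2 to 5, 0 to 5 and 0 to 2 in KO. The extremes came without WT D1 replicate 2, KO D4 replicate 2, WT D7 replicate 1 or WT D14 replicate 3 in the WT steps, and without replicate 1 or 2 of KO D4 in the KO steps. For these steps the share of all genes called under each alternative is not given here. The counts therefore describe the fit and are not read as a result about the 8 genes.

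Counts over all genes between KO and WT went from 1 to 0 (pseudocount 0.1 TPM or a filter of 5 TPM) and to 14 without a filter on D1. On D4, D7 and D14 they went from 0 to 21 (no filter), 533 and 51 (quality weights). The median of all genes moved from -0.28 to 0.00 (median-of-ratios), -0.02 (quantile) and -0.09 (abundant genes removed) on D4, and that of the 8 genes from -1.31 to -0.96, -1.18 and -1.07.

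These signs turned. On D4 without both WT D4 replicate 1 and KO D4 replicate 2, chosen after seeing the data, KO minus WT was 0.16 for Spp1, 0.057 for Gpnmb, 0.043 for Tyrobp and 0.13 for Lgals3. For Lgals3 on D14 it was -0.012 with median-of-ratios and -0.026 with quantile normalization. The average over days was 0.018 for Fabp5 and 0.038 for Spp1 with median-of-ratios, and for Spp1 0.062 with quantile normalization and 0.022 without the abundant genes. With quality weights it was 0.15 for Apoe, 0.34 for Fabp5, 0.56 for Spp1, 0.087 for Gpnmb, 0.10 for Tyrobp and 0.045 for Lgals3, the KO minus WT change from D4 to D7 was -0.94 for Spp1 and -0.20 for Lgals3, and Fabp5 from D1 to D4 in WT was -0.088. Cd9 from D4 to D7 in WT was 0.054, 0.13 and 0.13 under the 3 scalings.

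Leaving out 1 library, KO minus WT on D14 ran from -0.64 to 0.29 (Apoe), -0.78 to 0.30 (Trem2), -0.67 to 0.36 (Gpnmb), -0.12 to 0.43 (Cd9), -0.25 to 0.60 (Tyrobp) and -0.47 to 0.64 (Lgals3), the low ends without WT D14 replicate 3. The average over days ran from -0.33 to 0.050 (Apoe), -0.19 to 0.11 (Fabp5), -0.29 to 0.21 (Spp1), -0.080 to 0.060 (Cd9) and -0.36 to 0.026 (Tyrobp). The KO minus WT change from D4 to D7 ran from -0.36 to 1.14 (Apoe), -0.61 to 1.25 (Trem2), -0.0050 to 1.13 (Fabp5), -0.80 to 1.09 (Spp1), -0.65 to 1.33 (Gpnmb), -0.26 to 0.10 (Cd9), -0.31 to 1.04 (Tyrobp) and -0.55 to 1.07 (Lgals3), and that of Apoe from D7 to D14 from -0.024 to 0.91. From D1 to D4, WT differences ran from -0.37 to 0.77 (Fabp5), -1.76 to 0.13 (Spp1), -0.29 to 0.94 (Tyrobp) and -0.87 to 0.25 (Lgals3), and Trem2 in KO from -1.79 to 0.075.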
